A study of Mus musculus with 4 samples.

Results

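The Fc gamma receptor genes are the mouse genes whose products bind the constant part of IgG antibodies, together with the signalling subunit they share. Chosen by name, the 6 genes were Fcgr1, Fcgr2b, Fcgr3, Fcgr4, Fcer1g and Fcgrt, of 21883 protein-coding genes on the chromosomes of the RefSeq table (GRCm38.p6, the same assembly as mm10). Fcgr2b, Fcgr4, Fcgr3 and Fcer1g lie on chromosome 1, Fcgr1 on chromosome 3 and Fcgrt on chromosome 7. H3K27ac, a histone acetylation of active promoters and enhancers, was measured by fanChIP, a native chromatin immunoprecipitation, followed by sequencing. The cells were CD45.2+ bone marrow cells of C57BL/6 mice, with the genotype cKit(+) in the control group and cKit(+) BRD9-NUTM1 in the BN1 group. BRD9-NUTM1 is a leukaemia fusion gene. The labels give no age, and they do not say how the fusion was driven or whether mice were pooled.

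There was 1 ChIP library per group, each present as 1 peak list, so the differences have no replicate check, and no p-value was computed. The labels conflict in places. Peak names start with BRNU in the file of the control sample and with BM in the file of the BN1 sample, which reads the other way from the titles, and neither abbreviation is explained. The extract protocol also names BN1 cells for every sample. The lists are called control and BN1 after the sample titles, and each direction holds for the lists as labelled only. The control list held 28343 peaks over 31.0 Mb and the BN1 list held 19148 peaks over 19.1 Mb, a 1.62-fold difference in covered length. Sequencing depth is unknown. Within 10 kb of Kit, the gene of the sorted surface marker, no peak was called in either list.

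Activating Fc gamma receptors signal through an ITAM, a tyrosine motif that Src-family kinases phosphorylate and that then recruits the kinase Syk, and in myeloid cells this drives phagocytosis and cell killing. The motif is carried by the common gamma chain, the product of Fcer1g, which pairs with the receptors encoded by Fcgr1, Fcgr3 and Fcgr4. Fcgr2b encodes the inhibitory receptor, whose ITIM recruits the phosphatase SHIP-1, and it is the Fc gamma receptor of B cells. Fcgrt encodes the heavy chain of FcRn, an MHC class I-like receptor that pairs with beta-2 microglobulin and recycles IgG inside cells.

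Acetylation was called at the promoter of 5 of the 6 genes in the control list and of 4 in the BN1 list, where a promoter is the stretch from 250 bp before to 50 bp after a start. At Fcgr1 the control peak covered only 13 of these 300 bp. Over the genes in the promoter table the shares were 43.6% and 40.2%. The counts of members were 4 and 4 with lists of an equal number of peaks, 4 and 3 for peaks whose −log10 q reached 10, and 4 and 2 when each list was limited to its top 10000 peaks. The shares over all genes were not computed for these settings, so nothing particular to the members is read from these counts. All of the 6 genes had some region within 10 kb in both lists, as did 80.8% of the 13602 protein-coding genes with a region in either. The covered length is the number of bp under peaks within the gene span and 10 kb on each side. It was longer in the control list at 5 genes (Fcgr1, Fcgr2b, Fcgr3, Fcgr4 and Fcer1g) and longer in the BN1 list at Fcgrt, whose start had no peak in either list. Over the 6 windows, which do not overlap, the lengths summed to 26443 bp and 8869 bp, a ratio of 2.98. Of the 13602 protein-coding genes with a region in either list, 70.7% were longer in the control list and 29.3% shorter. When lengths were expressed as bp per Mb of each list's covered length, 41.8% of those genes and still 5 of the 6 members were longer in the control list. Differences are given as BN1 minus control. Their median was -43.0 bp per Mb over the members and 10.2 bp per Mb over all genes with a region, or -2321 and -457 bp. With 6 named genes, nothing particular to them is read from these shares. In sorted cells, fewer cells of a type and less acetylation per cell cannot be told apart.

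**Figure D1:**
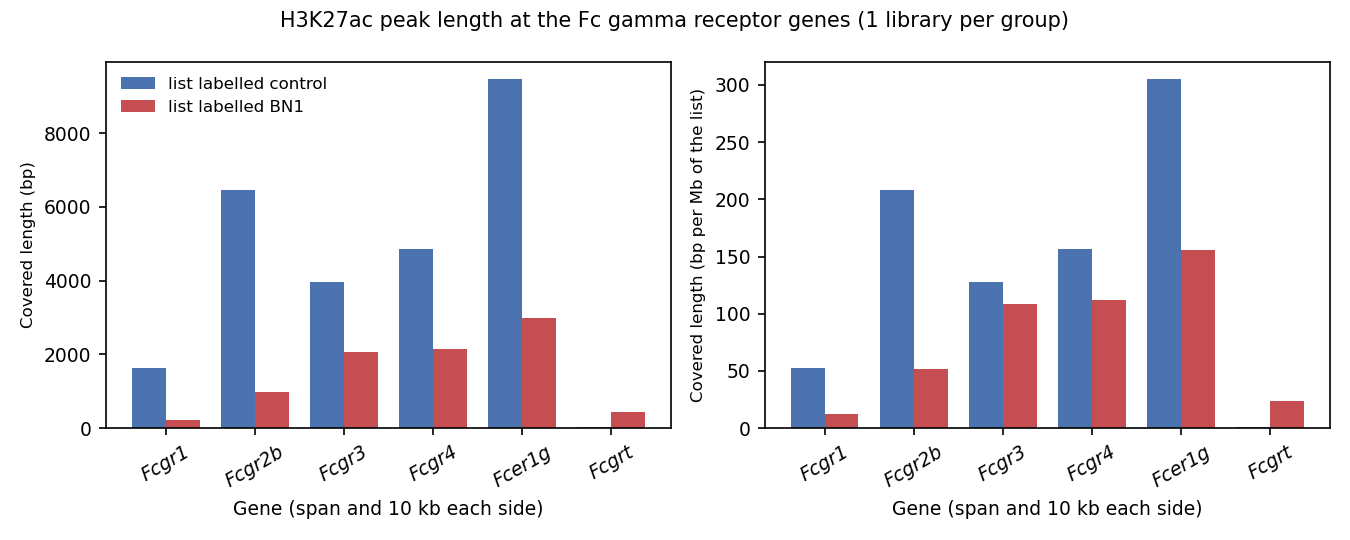
Bars give the length under H3K27ac peaks in the window of each of the 6 genes, in bp (left) and in bp per Mb of the covered length of the list (right), for the 1 library per group, so there are no error bars. The bar of the control list is the higher of the pair at 5 genes on both scales, and at Fcgrt it is 35 bp against 451 bp.

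The sequence before the start is shown for the 5 genes with a peak at the promoter, taken from RefSeq (GRCm38.p6), so that the stretch the peaks cover or miss can be read. All of the 6 genes were matched in the promoter table. Each run gives the 250 bases before the transcription start, 5′ to 3′ in the direction of transcription. Capitals mark matches to the motifs searched on both strands, which were GAGGAA (the core of sites of the myeloid factor PU.1), TTGCNNAA (C/EBP), an IRF motif (GAAA, any 2 bases, GAAA), TTCNNNGAA (the interferon-gamma activated site, GAS) and CACGTG (E box).
Fcgr1 (chr3:96293970-96294219, minus strand): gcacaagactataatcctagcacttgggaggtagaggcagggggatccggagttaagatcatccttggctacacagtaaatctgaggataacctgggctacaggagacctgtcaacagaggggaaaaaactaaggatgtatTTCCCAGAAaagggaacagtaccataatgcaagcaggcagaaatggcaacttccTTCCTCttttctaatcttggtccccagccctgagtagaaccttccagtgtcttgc
Fcgr4 (chr1:171018676-171018925, plus strand): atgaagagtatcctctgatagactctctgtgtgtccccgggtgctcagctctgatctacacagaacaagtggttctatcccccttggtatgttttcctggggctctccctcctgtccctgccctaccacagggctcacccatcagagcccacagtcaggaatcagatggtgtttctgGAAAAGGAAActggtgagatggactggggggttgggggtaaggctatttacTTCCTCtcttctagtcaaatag
Fcgr3 (chr1:171059404-171059653, minus strand): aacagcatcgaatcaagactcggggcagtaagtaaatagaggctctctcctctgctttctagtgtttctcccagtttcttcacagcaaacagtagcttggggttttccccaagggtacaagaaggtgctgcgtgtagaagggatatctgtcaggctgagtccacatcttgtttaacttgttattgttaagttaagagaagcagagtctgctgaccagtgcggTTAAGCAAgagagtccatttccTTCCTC
Fcgr2b (chr1:170976072-170976321, minus strand): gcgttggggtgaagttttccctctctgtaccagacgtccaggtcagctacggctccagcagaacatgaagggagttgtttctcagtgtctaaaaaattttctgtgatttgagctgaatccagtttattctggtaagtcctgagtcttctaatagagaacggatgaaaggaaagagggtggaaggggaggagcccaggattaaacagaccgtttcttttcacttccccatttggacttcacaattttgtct
Fcer1g (chr1:171234350-171234599, minus strand): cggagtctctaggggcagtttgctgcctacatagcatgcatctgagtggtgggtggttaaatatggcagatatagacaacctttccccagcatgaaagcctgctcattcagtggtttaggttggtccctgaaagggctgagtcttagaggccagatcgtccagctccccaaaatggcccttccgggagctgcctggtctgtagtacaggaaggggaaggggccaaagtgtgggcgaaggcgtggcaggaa

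GAGGAA was found on the reverse strand, where it reads TTCCTC above, in 3 of the 6 promoters, those of the activating receptors. Counted from the start site, with -1 the base before it, it lay at -55 to -50 in Fcgr1, at -22 to -17 in Fcgr4 and at -6 to -1 in Fcgr3. A match on either strand was present in 23.3% of 32841 promoters of this length. Fcgr1 also held a GAS match at -109 to -101, a motif found in 7.02% of promoters. The IRF match of Fcgr4 lay at -73 to -64 (2.98% of promoters), and C/EBP matches were found in Fcgr3 at -28 to -21 and in Fcgrt at -239 to -232 (9.57%). No match to these motifs was found in the stretches of Fcgr2b and Fcer1g, and CACGTG (6.02% of promoters) was in none of the 6. A match is a run of letters and not a measured site. Of the 250 bases before the start, both lists covered 250 at Fcgr2b and at Fcer1g. At Fcgr4 the control list covered 250 and the BN1 list 223, at Fcgr3 they covered 244 and 250, and at Fcgr1 neither list covered any.

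Fcgr1 (chromosome 3, 96282909 to 96293969, minus strand) encodes the high-affinity IgG receptor of monocytes and macrophages, CD64. Its window held 3 peaks and 1639 bp in the control list and 1 peak of 229 bp in the BN1 list. The peak nearest the start in the control list (96293227 to 96293932) began 37 bp inside the gene and reached 742 bp into it, with a fold enrichment at its summit of 5.06. The fold is the authors' value for the peak within its own list, and folds of different lists are not compared here. The other pair lay upstream, with the stronger summit 7115 bp before the start at a fold of 7.73 and a weaker peak of 217 bp at 5.41. The only peak in the BN1 list lay beyond the 3' end of the gene, with its summit 16052 bp past the start, and had a fold of 2.81, higher than or equal to only 1.55% of the peaks of that list. The lists had no overlapping peak here. At the Fcgr1 promoter the control list covered 13 of the 300 bp and not the start base itself. On that overlap Fcgr1 was the 1 member with a promoter peak in the control list only, a state found at 6.76% of 17491 genes in the promoter table. The promoter peak was lost, and with it this state, in lists of an equal number of peaks (933 and 229 bp in the window) and among peaks whose −log10 q reached 10 (716 and 0 bp). Limited to the top 10000 peaks per list, Fcgr1 had no region in either, and with 50 kb flanks, which take in neighbouring histone genes, the lengths were 13596 and 13588 bp.

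Fcgr4 (chromosome 1, 171018926 to 171029761, plus strand) encodes the activating receptor of mouse neutrophils and monocytes for IgG2a and IgG2b. Its start carried a single peak of 4126 bp in the control list, from 2587 bp before the start to 1538 bp after it. In the BN1 list there were 2 shorter peaks of 1343 and 355 bp, and the nearer one ended 28 bp before the start. The highest points nearly coincided, with summits 1140 bp upstream of the start in the control list and 1115 bp in the BN1 list, 25 bp apart. The folds there were 15.8 and 12.5. No peak of the BN1 list reached into the gene, where the control list covered 1539 bp. The whole window had 4872 bp against 2140 bp, and all of the latter lay under peaks of the control list. These totals include a peak beyond the 3' end of the gene, at the tRNA genes described below. It was 746 bp wide in the control list and 442 bp in the BN1 list, with summits 19379 and 19354 bp past the start.

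Fcgr3 (chromosome 1, 171051169 to 171065915, minus strand) encodes the low-affinity activating receptor, CD16, which NK cells use. Its window held 7 peaks and 3978 bp in the control list against 2 peaks and 2068 bp in the BN1 list. Per Mb of covered length the values were 128 and 108 bp, the closest pair among the 5 genes that were longer in the control list. The promoter peak was 2087 bp wide in the control list, from 244 bp before to 1842 bp after the start, and 1260 bp wide in the BN1 list, from 257 bp before to 1002 bp after it. A second peak of the BN1 list, 808 bp wide, lay 1384 to 2191 bp inside the transcribed part. Summits of the promoter peaks were 104 bp apart. The promoter table holds 2 starts for Fcgr3, and the first listed was used for the distances and the sequence. The RefSeq span of Fcgr3 extends upstream of this start. Peaks of the control list with summits 5153 and 5829 bp upstream of it thus lay inside the gene span. With these 2 included, the 5 peaks of the control list that had no partner were 255 to 428 bp wide, with folds of at most 5.37. The peak 5153 bp upstream lay over the tRNA gene n-TGtcc1. Without the weaker peaks the lists came closer, with 2836 against 2068 bp both for peaks whose −log10 q reached 5 and in lists of an equal number of peaks, where the difference was -768 bp in place of -1910 bp.

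Fcgr2b (chromosome 1, 170960558 to 170976071, minus strand), the inhibitory receptor gene, had 7 peaks and 6447 bp in the control list and a single peak of 995 bp in the BN1 list. That single peak, from 613 bp before to 381 bp after the start, lay wholly inside the promoter peak of the control list, which was 3691 bp wide and ran from 2529 bp before to 1161 bp after it. The folds were 6.73 and 13.7, higher than or equal to 50.4% and 81.5% of the peaks of the respective lists. The control list had another strong peak beyond the 3' end of the gene, 588 bp wide with a fold of 13.6, whose summit was 22330 bp past the start and which had no partner. The 5 others of the control list were 312 to 562 bp wide with folds of at most 4.34, and had no partner either. The 6.48-fold difference in length was larger than at Fcer1g (3.17), Fcgr4 (2.28) or Fcgr3 (1.92), and Fcgr1 had 7.16. It was 4.30-fold (4279 against 995 bp) for peaks whose −log10 q reached 5 or 10, in lists of an equal number of peaks and with the top 10000, and with 50 kb flanks it was 1.24-fold, below Fcer1g (3.03), Fcgr4 (2.11) and Fcgr3, which lay between them. A difference at least as far to the control side in bp was found at 4.96% of genes with a region. Extracellular exons of Fcgr2b, Fcgr3 and Fcgr4 are similar in sequence, so reads there could be placed at the wrong copy, and how such reads were handled is not given in the sources used here.

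Fcer1g (chromosome 1, 171229572 to 171234349, minus strand), the gene of the common gamma chain, had the longest covered length of the 6 in both lists, with 9472 bp in 7 peaks and 2986 bp in 3 peaks. A single peak of 5836 bp in the control list spanned nearly the whole gene, covering 4638 bp of its 4778 bp, and ran on 1198 bp upstream of the start. In the BN1 list the same stretch held 2 peaks of 1571 and 671 bp, which covered 1846 bp of the gene, and the wider one ran from 396 bp before the start to 1174 bp after it. The difference of -6486 bp, BN1 minus control, was the largest of the 6 in bp, and 3.62% of genes with a region lay at least as far to the control side. Per Mb the difference was -149 bp, behind Fcgr2b at -156 bp. Part of this length lies at Apoa2, a lipoprotein gene downstream. There the lists had 1 peak in common of 663 and 744 bp, with summits 21 bp apart and folds of 9.18 and 17.5, and 1 further peak in the control list of 1146 bp covered the Apoa2 promoter. The 4 remaining peaks of the control list were 287 to 627 bp wide with folds of at most 4.39, and had no partner. The 3 genes with the nearest pair of lengths to Fcer1g, by distance in bp over these 2 libraries, were Edem1 (9514 and 2972 bp), Ppcdc (9614 and 2923 bp) and Lfng (9627 and 3029 bp).

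Fcgrt (chromosome 7, 45092993 to 45103822, minus strand), the FcRn gene, had no peak inside the gene or at its promoter in either list. The lengths of 35 bp in the control list and 451 bp in the BN1 list came from the edge of 1 peak per list that lay at the neighbouring gene Rcn3, and those peaks overlapped each other by 607 bp. The summits stood 20978 and 20906 bp past the start of Fcgrt, close to the limit of the window. Its direction therefore turned with the setting. At a −log10 q of at least 5 the lengths were 35 and 0 bp, and with 50 kb flanks 8489 and 7090 bp.

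**Figure D2:**
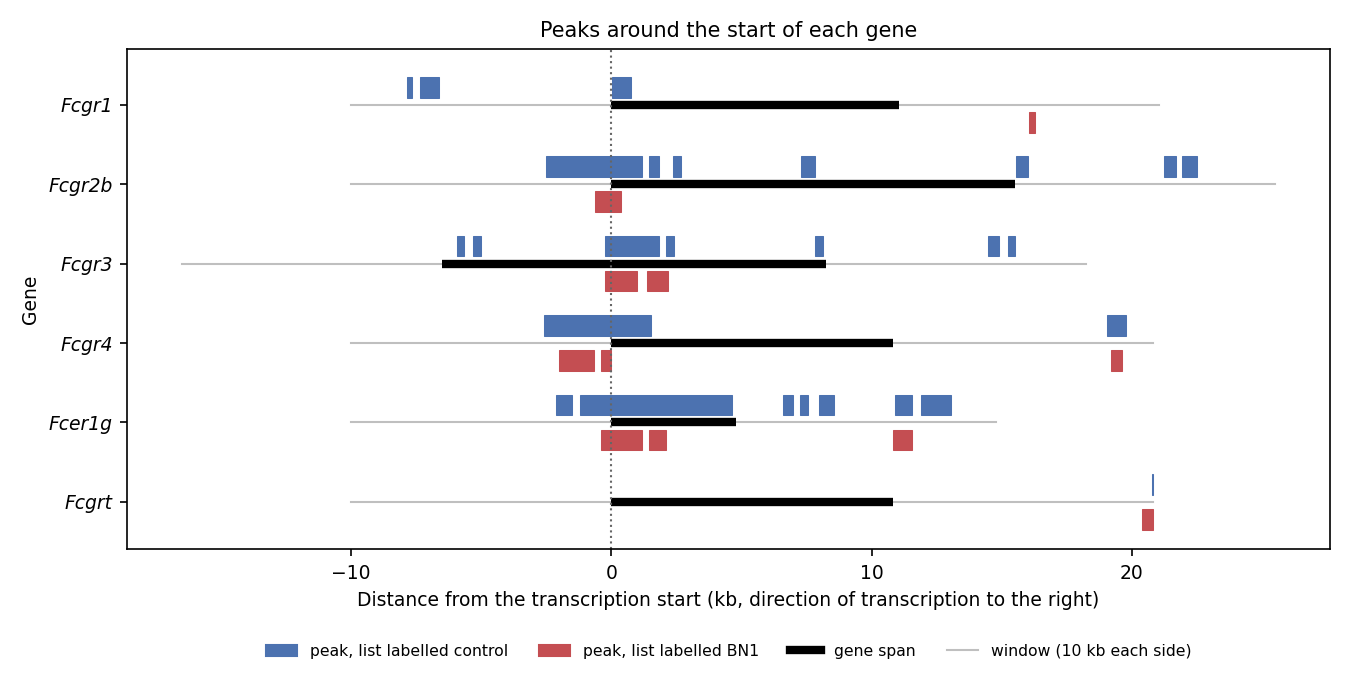
Peaks of both lists in the window of each of the 6 genes, aligned on the transcription start at 0 kb with transcription to the right, with the control list above the gene and the BN1 list below it. The promoter peaks of the control list run further at Fcgr2b, Fcgr4 and Fcer1g, the only peak of the BN1 list at Fcgr1 lies past the 3' end, and Fcgrt has peaks only at the far edge.

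Promoter peaks in both lists were found at 4 of the 6 genes (Fcgr2b, Fcgr3, Fcgr4 and Fcer1g), against 36.9% of 17491 genes in the promoter table. Peaks in the BN1 list mostly lay within those of the other list. Of its 11 peaks in the 6 windows, 10 met a control peak, whereas 8 of 27 did so in the other direction. Over all peaks the shares were 62.6% in the BN1 list and 41.2% in the control list. In bp, 89.0% of the BN1 length and 29.8% of the control length in the windows was common to both. The common length over the whole lists was not computed.

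On chromosome 1 the receptor genes and Fcer1g were also read as 1 map, from 170950558 to 171244349, a stretch of 294 kb. It held 38 peaks over 38119 bp in the control list and 14 peaks over 12182 bp in the BN1 list, a ratio of 3.13 where the whole lists gave 1.62. The lists had 11254 bp in common, which was 29.5% of the control length and 92.4% of the BN1 length. Of the 14 BN1 peaks, 13 had a partner, and the exception was 236 bp wide with a fold of 3.72, with its summit 19657 bp upstream of the Fcgr2b start. Of the 38 control peaks, 11 had a partner. Over all peaks, 62.6% of the BN1 list and 41.2% of the control list had one. Among the control peaks of the map the 11 were wider and stronger, with a median width of 1656 bp and a median fold of 10.8. The 27 without a partner had 448 bp and 4.15. Common length, and width and fold by sharing, were not computed over the whole lists, so nothing particular to the map is read from them.

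Between Fcgr2b and Fcgr4 lay a stretch of 22854 bp that the gene windows do not take in, with 2984 bp in the control list and 2474 bp in the BN1 list. Its main peak was 1674 bp wide in the control list and 1480 bp in the BN1 list, with folds of 10.8 and 10.7. Its summit stood 20094 and 20300 bp upstream of the Fcgr4 start. A second peak 12020 and 12121 bp upstream of Fcgr4 was the longer in the BN1 list, with 758 bp (fold 10.7) against 400 bp (fold 4.74). No gene of the table overlapped these peaks. The stretch between Fcgr3 and Fcer1g, which holds genes of other families, had 11 peaks over 10366 bp in the control list and 2 peaks over 1519 bp in the BN1 list, all of the latter under control peaks. It spans 143656 bp and had the widest gap of the map in bp. The 1407 bp between the windows of Fcgr4 and Fcgr3 held no peak in either list.

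The strongest peak of the map in the control list did not lie at a receptor gene start. It was 746 bp wide with a fold of 36.1, higher than or equal to 98.8% of that list. It lay between Fcgr4 and Fcgr3 (171037974 to 171038719), inside the Fcgr4 window, over the tRNA genes n-TGtcc2 and n-TLcag3. The BN1 list had a peak of 442 bp with a fold of 14.7 there, between the same tRNA genes, and the summits were 25 bp apart. The map holds 25 tRNA genes in 77.6 kb. Copies of a tRNA gene can be alike in sequence, so reads there could be placed at the wrong copy, which was not measured here. Peaks lay over a tRNA gene 4 times in the control list and once in the BN1 list. Without such peaks, an alternative chosen after seeing the data, the ratio over the map was 2.96 and the members' direction was as before at all of the 6 genes. This setting removed the 746 bp peak of the control list but kept its 442 bp partner, which overlaps no tRNA gene. The Fcgr4 window then had 4126 against 2140 bp, so the removal was 1-sided at that site.

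**Figure D3:**
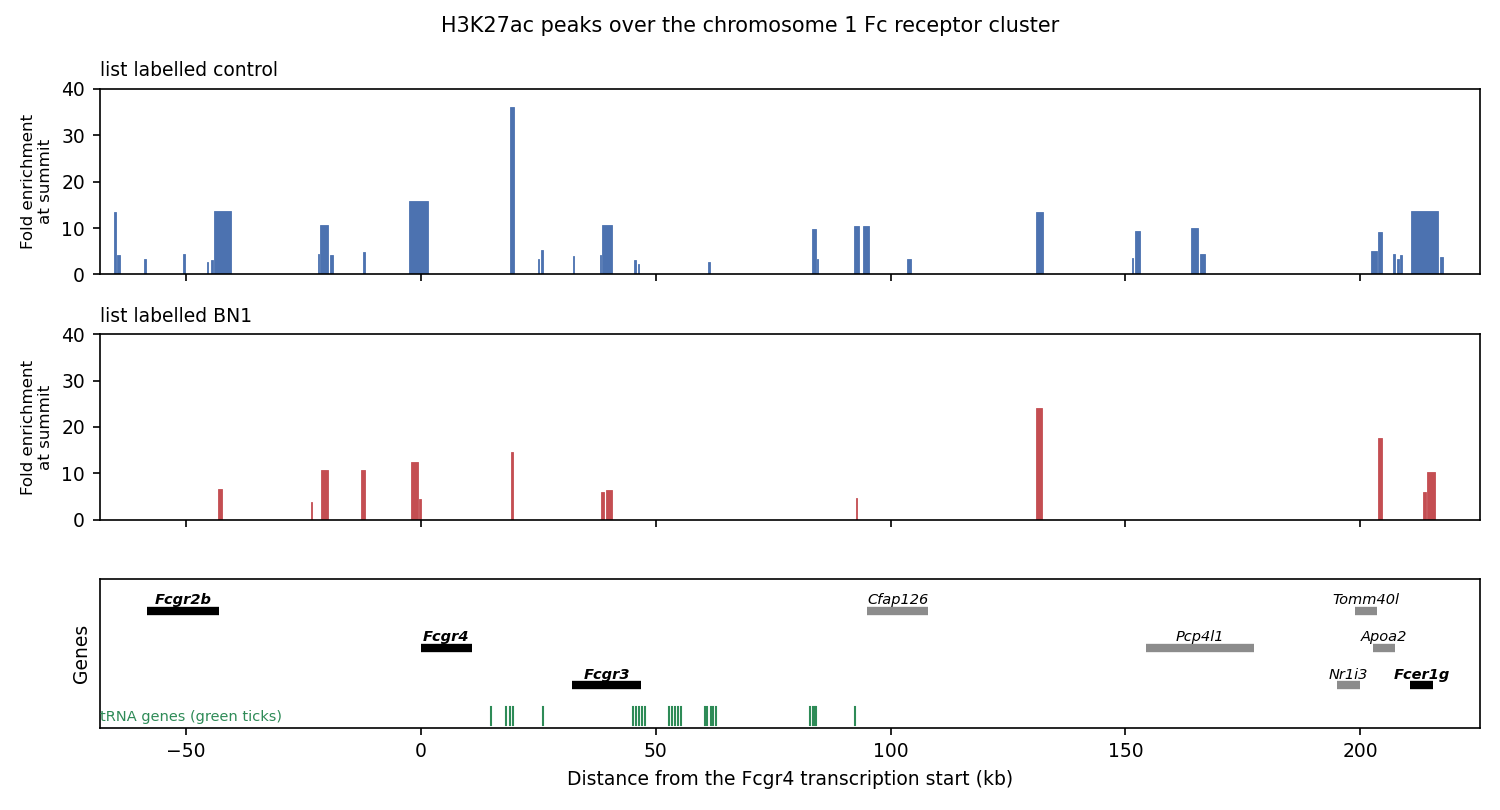
Peaks over the chromosome 1 stretch drawn at their width, with the fold enrichment at the summit as height in each list's own scale, against the distance from the Fcgr4 start in kb, above the genes that the text names and the tRNA genes. The control list has 38 peaks and the BN1 list has 14, most of which stand where the former also has one.

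**Figure D4:**
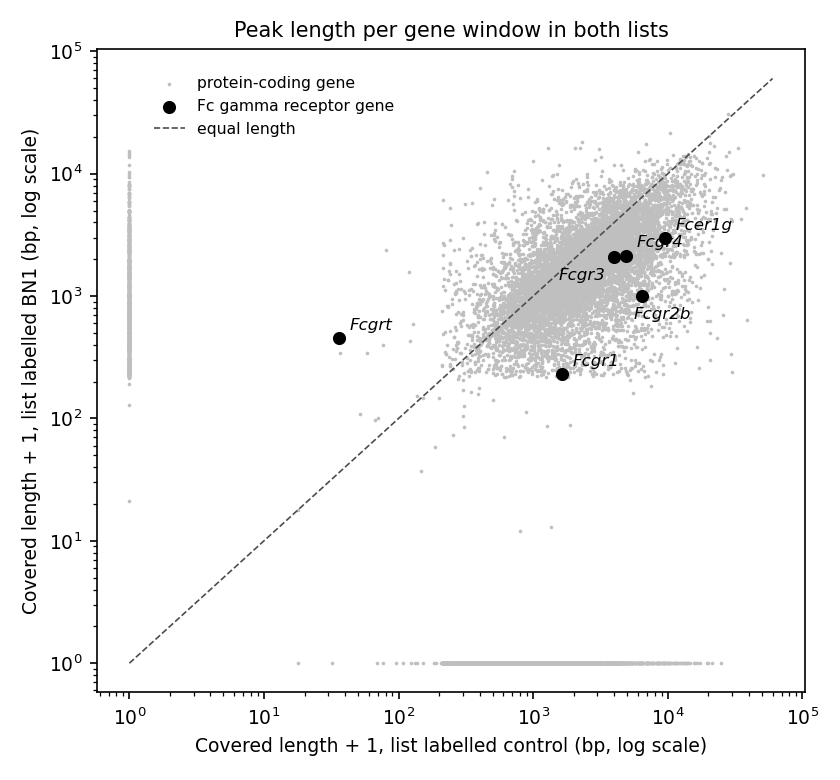
Each point is a protein-coding gene with a region in either list, placed by its covered length plus 1 bp in the control list (horizontal, log scale) and in the BN1 list (vertical, log scale), with genes that have no region in 1 list on the edges. Of the 6 labelled genes, 5 lie below the line of equal length and Fcgrt lies above it.

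The partners and signalling genes of the receptors gave no single direction. Of 44 listed genes all were in the table, 26 were longer in the control list, 12 in the BN1 list and 6 had no region. The 26 are 68.4% of the 38 genes with a region, close to the 70.7% of all genes. Per Mb of covered length 16 were longer in the control list and 22 shorter, and the median over the 44 genes was 0.14 bp per Mb against 10.2 for all genes.

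Among the adaptors and kinases downstream of the ITAM, 16 of 22 were longer in the control list and 6 shorter, and 21 had a region in both. The 16 are 72.7%, close to the 70.7% of all genes with a region. Per Mb, 10 were longer in the control list and 12 shorter. Syk itself, the kinase the ITAM recruits, had 14536 and 13588 bp, and Tyrobp, the other ITAM adaptor of myeloid cells, had 13045 and 12061 bp. At both of them the difference changed sign per Mb (242 and 210 bp per Mb, BN1 minus control), as it also did at Fgr, Btk, Vav3 and Was. Larger differences were found at Prkcd, a protein kinase C (23051 and 5283 bp), the adaptor Lcp2, or SLP-76 (12678 and 1201 bp), and the exchange factor Vav1 (11274 and 2583 bp). The kinase Lyn had 10200 and 3785 bp and the adaptor Grb2 8795 and 3145 bp. The kinase gene Src had 10279 bp in the control list and none in the BN1 list. In the other direction, Blnk, the B cell counterpart of SLP-76, had 1586 and 6114 bp. Smaller excesses in the BN1 list were found at Pik3cd, a PI3 kinase subunit (4776 and 6362 bp), its regulatory subunit Pik3r1 (2531 and 3583 bp), Plcg2, a phospholipase C (1606 and 3102 bp), and the GTPase Rac2 (3790 and 4732 bp).

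Of 9 inhibitors of this signalling, 6 were longer in the control list (66.7%) and 3 shorter, and per Mb 5 were longer and 4 shorter. Ptpn6, the phosphatase SHP-1, had 16358 and 8923 bp, and the adaptor Dok2 had 7610 and 1486 bp. Inpp5d, which encodes the SHIP-1 recruited by the inhibitory receptor, had 20521 and 17703 bp, a difference that turned per Mb (264). Csk, which restrains Src kinases, had 10301 and 11179 bp. B2m, the partner of FcRn, had a promoter peak in both lists, with 4111 and 2629 bp, and it too turned per Mb (4.99).

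Of 12 other Fc receptor genes, 6 had no region in either list, among them Fcer1a and Ms4a2, the other subunits of the IgE receptor that the common gamma chain completes. The direction was divided in the rest, with 3 longer in each list. Fcrla, which encodes an Fc receptor-like protein of B cells and lies next to the chromosome 1 map, had 1760 bp in the control list and 6818 bp in the BN1 list, the opposite direction to its neighbour Fcgr2b. Fcmr, the IgM receptor, and Fcrl1, a receptor-like protein of B cells, had 1028 and 964 bp in the BN1 list only, both with a promoter peak. Fcrlb had 2196 bp in the control list only.

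**Figure D5:**
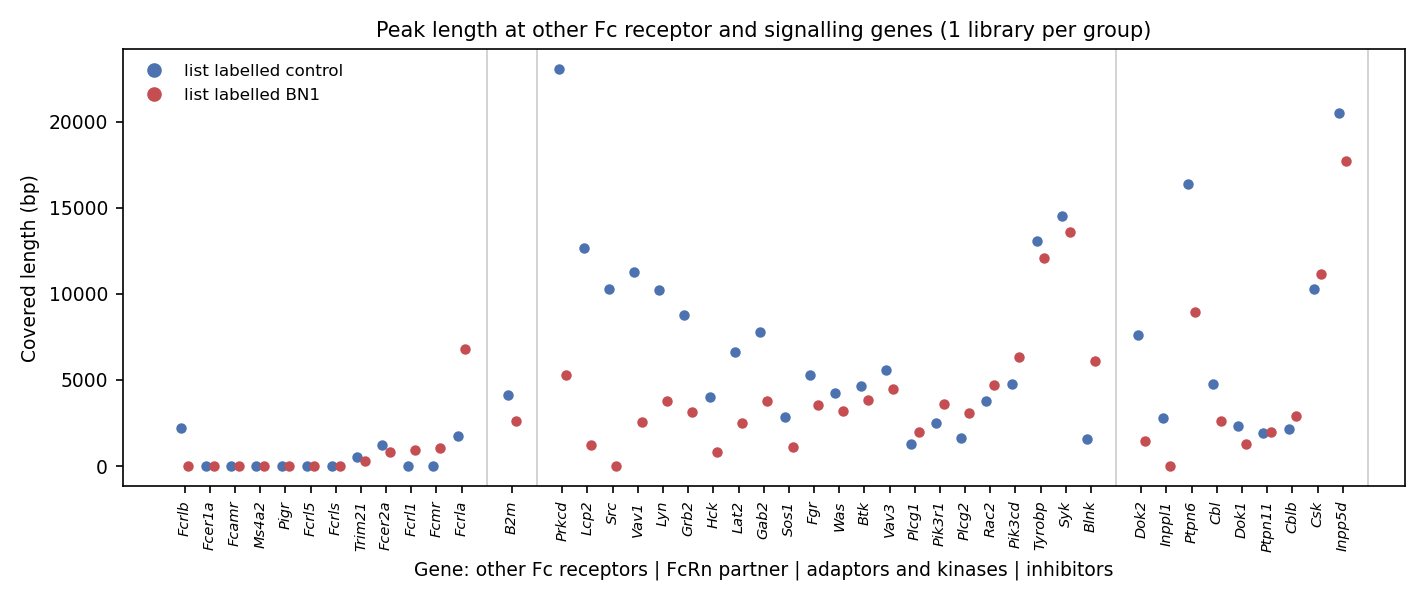
Points give the length under peaks in the window of each of 44 genes in bp, with 1 point per list and gene, grouped from left to right as other Fc receptors, the FcRn partner, adaptors and kinases, and inhibitors, and ordered within a group by the difference per Mb. Prkcd and Src stand far above their partner point in the control list, whereas Fcrla and Blnk are the higher in the BN1 list.

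Markers of cell types that use these receptors also had unlike lengths in the lists. Their counts stand beside the 70.7% of all genes with a region that were longer in the control list, or 41.8% per Mb, and the 29.3% that were longer in the BN1 list. Monocyte and macrophage markers were longer in the control list at 5 of 5 genes (21145 against 4335 bp in sum), and at 4 of 5 per Mb, where Ly86 was longer in the BN1 list, and Adgre1 and Cx3cr1 were at 0 in the BN1 list. Neutrophil markers were longer in the BN1 list at 7 of 7 genes (2111 against 38036 bp), with S100a9, Ngp, Ltf and Cxcr2 at 0 in the control list. B cell markers were longer there at 4 of 5 genes (1964 against 24492 bp), with Cd79b, Pax5 and Ebf1 at 0 in the control list and Ms4a1 at 0 in the BN1 list. T and NK cell markers had 3906 and 7083 bp with Cd3e and Ncr1 at 0 in both, mast cell and basophil markers 0 and 11798 bp, all of it at Hdc, and dendritic cell markers 7238 and 8733 bp. Erythroid markers had 3026 and 4940 bp, and of the progenitor markers Kit and Gata2 were at 0 in both lists while Cd34 had 1601 and 0 bp. The part of the cell types in the lengths at the Fc gamma receptor genes was not tested.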

How the data were processed

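The members and lists were chosen with earlier results of these data known. Bowtie2 2.5.4, Picard 3.2.0, deepTools 3.5.1, MACS3 3.0.1 and the build mm10 are named in the submitters' processing notes, without roles; for input use, pooling and thresholds no source used here gives a statement. The deposited narrowPeak lists give for each peak the authors' fold enrichment at the summit (a linear ratio), its p-value and q-value on a −log10 scale, and a score, which was not used. The 2 input libraries were not analysed here.

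Peaks did not overlap within a list. Lengths are bp under peaks in the gene span and 10 kb each side, with genes and promoters (250 bp before to 50 bp after a start) from RefSeq GRCm38.p6. Peaks overlapping by at least 1 bp were shared. Coverage was tested on simulated intervals. With 1 library per group nothing was tested. All members were reported, with their peaks singly or by range; of the 44 pathway genes, up to 8 per direction by bp were to be named, of neighbours those in the map and of markers at most 3 per list (some neighbours and markers are not reported here); further markers, Syk, Tyrobp, Inpp5d, Csk, B2m and the Fc receptor genes were named after their values were seen. Alternatives were −log10 q of at least 5 or 10, lists of equal length, the top 10000 peaks, flanks of 0 or 50 kb, bp per Mb and, for sharing, overlap of 50% of the shorter or of both peaks. Python 3.11.15, numpy 2.4.6 and pandas 2.3.3 were used.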

Additional observations from a re-analysis of the deposited data

How the results depend on the processing

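No paired analysis was possible because each group had 1 library. The ratio of covered length, control to BN1, over the members stayed above 1 under all settings run and was furthest from 2.98 with 50 kb flanks (1.55) and per Mb (1.84). Over the chromosome 1 map it was 2.07 and 1.93 under these settings. The whole lists gave 1.62 in bp, so with 50 kb flanks the members' ratio lay below that of the whole lists. The ratio of the whole lists was not computed for the stricter peak settings. The count of members longer in the BN1 list fell from 1 to 0 at −log10 q minimums of 5 and 10, with the top 10000 peaks, without flanks and with 50 kb flanks, since the peak at the edge of the Fcgrt window was dropped or joined by others. The difference at Fcgrt, BN1 minus control, turned to -35 bp at a −log10 q minimum of 5 and to -1399 bp with 50 kb flanks. Members longer in the control list numbered 4 to 6 in every setting. Shared peaks at the members, 18 over both lists, were 8 of 27 in the control list and 10 of 11 in the BN1 list. They numbered 8 where the overlap had to reach 50% of both peaks (4 of 27 and 4 of 11). With the top 10000 peaks they numbered 10 (5 of 7 and 5 of 5), so fewer peaks were left but most were shared. The shares over all peaks were not computed for these settings. Depth is unknown, so a weak region missing from a list may have been below what could be called.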

Other observations

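The other genes of the chromosome 1 map named here were also longer in the control list in bp, as were 70.7% of all genes with a region. Pcp4l1, a gene related to that of a Purkinje cell protein, had 3981 bp in the control list and none in the BN1 list. Cfap126, a gene of motile cilia, had 3329 and 232 bp, with a promoter peak in the control list only. The 232 bp lay outside the gene at the tRNA gene n-TVcac6, where the control list had a peak of 968 bp. Nr1i3, which encodes a nuclear receptor, had 3009 and 744 bp, and Tomm40l, a gene related to a mitochondrial import pore, had 5812 and 1013 bp. The windows of Nr1i3 and Tomm40l share peaks with each other and with Fcer1g, so their lengths are not separate measurements.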
